A study of Mus musculus with 30 samples.

Results

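The AP-1 and BATF subunits were followed through the chromatin at their own genes. All peaks that an ATAC-seq table of cultured mouse natural killer (NK) cells names after Fos, Fosb, Fosl1, Fosl2, Jun, Junb, Jund, Batf or Batf3 were taken, with no other criterion. This gave 58 of 38526 peaks, at 9 of the 14886 genes named. The 9 genes were chosen with earlier results of these data known. ATAC-seq inserts sequencing adapters into open DNA with a transposase, so a peak is a stretch of accessible chromatin and its read count measures how open that stretch was in the library, not how much of the gene's RNA or protein was made. Values are reads per peak scaled by each library's size factor, called normalised counts here. A difference is given on the log2(normalised count + 1) scale with its standard error, which understates the change at peaks with few counts.

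The 30 libraries came from spleen NK cells grown over 5 days in low-dose IL-2 plus IL15:IL15Ra, in 8 groups. EP2/EP4 KO cells carried GzmbCre, Ptger2-/- and Ptger4fl/fl alleles and lack the prostaglandin E2 (PGE2) receptors EP2 and EP4, and WT cells were C57BL/6J. In the KO, Cre is driven by the granzyme B gene, so Ptger4 is deleted in cells that have switched that gene on, and since WT cells carried no Cre, receptor loss and Cre cannot be told apart. Cells of each genotype received 100 ng/ml PGE2 for 5 h or were left untreated, and each condition was split into cells whose activating receptor NK1.1 was engaged 1 h into the treatment, for 4 h, and cells left unstimulated. Every group had 4 libraries, except untreated unstimulated KO and PGE2-treated unstimulated WT cells with 3 each. The labels number the replicates but do not say that they came from separate animals or cultures, so p-values measure the spread between these libraries, which may be technical.

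AP-1 is a family of dimers of basic leucine zipper proteins. FOS family members (Fos, Fosb, Fosl1, Fosl2) do not form stable homodimers and bind DNA with a JUN partner (Jun, Junb, Jund), at TRE and CRE sequences. Batf and Batf3 lack a transactivation domain, pair with JUN proteins and bind composite sites with IRF4 or IRF8 in lymphocytes and dendritic cells. Several of these genes are immediate early genes: MAP kinases, calcium signals and CREB raise their transcription within minutes of receptor engagement. EP2 and EP4 couple to Gs and raise cAMP, which activates protein kinase A and CREB, while NK1.1 signals through adaptor chains with immunoreceptor tyrosine motifs, as T cell receptors do.

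The start sites of Fosl2 and Batf3 lie in promoter peaks that moved with the conditions, that of Junb in one that moved less, and those of Fos and Jun in peaks that hardly moved, so these 5 promoters are shown. Each runs from 250 bases before to 50 bases after the RefSeq start site (GRCm38.p6, the same assembly as mm10), in the direction of transcription, with the CRE core site (TGACG or its complement CGTCA) in capitals where it occurs.
Fosl2: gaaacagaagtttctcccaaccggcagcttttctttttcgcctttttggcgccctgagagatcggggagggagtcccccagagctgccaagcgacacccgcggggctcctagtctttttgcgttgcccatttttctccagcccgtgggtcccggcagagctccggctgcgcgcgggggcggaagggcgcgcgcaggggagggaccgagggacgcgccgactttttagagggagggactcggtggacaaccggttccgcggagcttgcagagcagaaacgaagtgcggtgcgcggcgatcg
Batf3: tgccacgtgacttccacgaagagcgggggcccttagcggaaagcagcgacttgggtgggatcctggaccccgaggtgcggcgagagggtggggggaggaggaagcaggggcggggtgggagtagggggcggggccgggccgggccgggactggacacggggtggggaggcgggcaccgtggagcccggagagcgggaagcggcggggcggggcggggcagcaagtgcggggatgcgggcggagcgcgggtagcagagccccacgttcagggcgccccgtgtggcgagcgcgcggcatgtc
Junb: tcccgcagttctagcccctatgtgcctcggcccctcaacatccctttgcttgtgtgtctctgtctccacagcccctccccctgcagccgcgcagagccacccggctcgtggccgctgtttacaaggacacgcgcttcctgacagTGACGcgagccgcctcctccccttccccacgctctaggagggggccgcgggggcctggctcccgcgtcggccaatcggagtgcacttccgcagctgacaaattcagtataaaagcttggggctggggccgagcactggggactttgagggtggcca
Fos: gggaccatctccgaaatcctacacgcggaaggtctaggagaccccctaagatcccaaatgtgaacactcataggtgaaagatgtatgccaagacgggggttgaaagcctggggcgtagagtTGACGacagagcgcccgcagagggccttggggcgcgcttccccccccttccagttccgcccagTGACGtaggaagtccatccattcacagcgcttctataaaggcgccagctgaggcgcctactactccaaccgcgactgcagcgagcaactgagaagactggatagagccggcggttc
Jun: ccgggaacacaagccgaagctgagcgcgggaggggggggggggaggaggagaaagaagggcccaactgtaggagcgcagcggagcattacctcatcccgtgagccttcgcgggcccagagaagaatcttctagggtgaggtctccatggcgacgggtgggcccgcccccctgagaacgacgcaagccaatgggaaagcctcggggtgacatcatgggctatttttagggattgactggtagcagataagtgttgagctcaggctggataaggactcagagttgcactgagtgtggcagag
Promoters of 8 of the 9 genes were found in the RefSeq table and searched on both strands. The Jund window overlapped no peak, since the Jund promoter peak began 549 bases downstream of the RefSeq start used. The core site occurred in Fos at -129 and -66 from the start, in Fosb at -60, in Junb at -106 and in Batf at -98. It occurs in 20.8% of 32851 mouse promoter windows of this length, so it is common. The full CRE (TGACGTCA, 1.79% of windows), which contains the core site on each strand, and the TRE (TGACTCA or TGAGTCA, 5.2%) were in none of the 8 windows, and neither was the CArG box (1.63%). The kappa B motif (4.51%) matched in Fos, Fosb and, at overlapping positions, in Fosl2, and the GAS motif (TTCNNNGAA, 8.3%) matched in Batf3. These matches describe the letters in the windows and not binding. The TRE and full CRE were searched by exact letters, and bases outside the windows were not searched. An absence here therefore does not cover variant sites or sites farther upstream.

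Each library held 8444350 to 20153816 reads in peaks, and 1 read was worth 0.663 to 1.66 normalised counts. At the loci targeted in the KO, no KO library overlapped a WT library: the promoter peak of Ptger2 held 83.6 to 247 normalised counts in the 15 KO libraries and 559.8 to 1109 in the 15 WT libraries, and the Ptger4 exon peak 56.2 to 152 in KO and 434 to 685 in WT. All 8 NK marker genes had a promoter peak, with a summed level of 18517 to 26922 per library over their peaks. The B cell marker Pax5 had 3 peaks, none at a promoter (summed level 303 to 599.99), and of 5 T cell markers 3 had peaks, none at a promoter, while Cd4 and Cd8a had none (1618 to 2131). Myeloid markers had peaks at 5 of 6 genes (2880 to 3701), erythroid at 2 of 4 (458 to 663) and ILC2 and ILC3 markers at 5 of 5 (8730 to 11650). Of these, 2 myeloid, 1 erythroid and 2 ILC2 and ILC3 genes had a promoter peak. The sums cover 46 NK, 3 B cell, 3 T cell, 12 myeloid, 3 erythroid and 42 ILC2 and ILC3 peaks, so levels cannot be compared between lists. ATAC-seq on a bulk culture cannot tell more open cells from a wider opening in each cell, and this holds for every difference below.

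The 58 peaks lay mostly away from the genes' starts. The table calls 39 of them intergenic (67.2%, against 27.2% of all peaks) and 12 promoter (20.7%, against 31.3%), with 4 in introns and 3 in exons. Jun had 18 peaks, from 251.3 kb upstream to 16.7 kb downstream of its start, Fos 9, Fosb 8, Fosl2, Batf and Batf3 5 each, Junb 4, Jund 3 and Fosl1 1. The median gene had 2 peaks, and 97 genes (0.652%) had as many as Jun. RefSeq starts fell inside 7 of the peaks. For 56 peaks no other coding gene lay nearer, by distance to the closest edge of the gene and not to its start. The Batf peaks 31.0 and 25.5 kb upstream were nearer to an edge of Jdp2, another gene of the same protein family. Those distances were 15.5 and 20.8 kb, against 30.6 and 24.9 kb to Batf. All 58 peaks passed the filter on low values, none was at 0 in any library, and the lowest single value was 4.56.

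At the leading promoter peaks of 6 genes, the 8 groups formed an unbroken chain. At the Jun promoter peak (chr4:95049904-95053644) the group means ran from 2079 in untreated unstimulated KO cells to 2484 in untreated stimulated WT cells, and every group overlapped its neighbour in that order. The same held for Jund, with group means from 2218 to 2495, for Fos, with 861 to 1027, for Fosb, with 309 to 353, and for Batf, with 417 to 495. The chain was widest at Junb, from 1219 to 1845. Fosl1 and Batf3 broke into separate levels. At the Fosl2 start-site peak some neighbours in that order did not overlap, but the ranges of other groups bridged the gaps. At the Batf3 promoter (chr1:191096901-191098840) the 3 highest groups were untreated stimulated KO (981), PGE2-treated stimulated KO (920.3) and untreated stimulated WT cells (905), which overlapped. PGE2-treated stimulated WT cells followed, apart from the groups above and below, at 405, and the 4 unstimulated groups overlapped between 189 and 199.7.

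**Figure D1:**
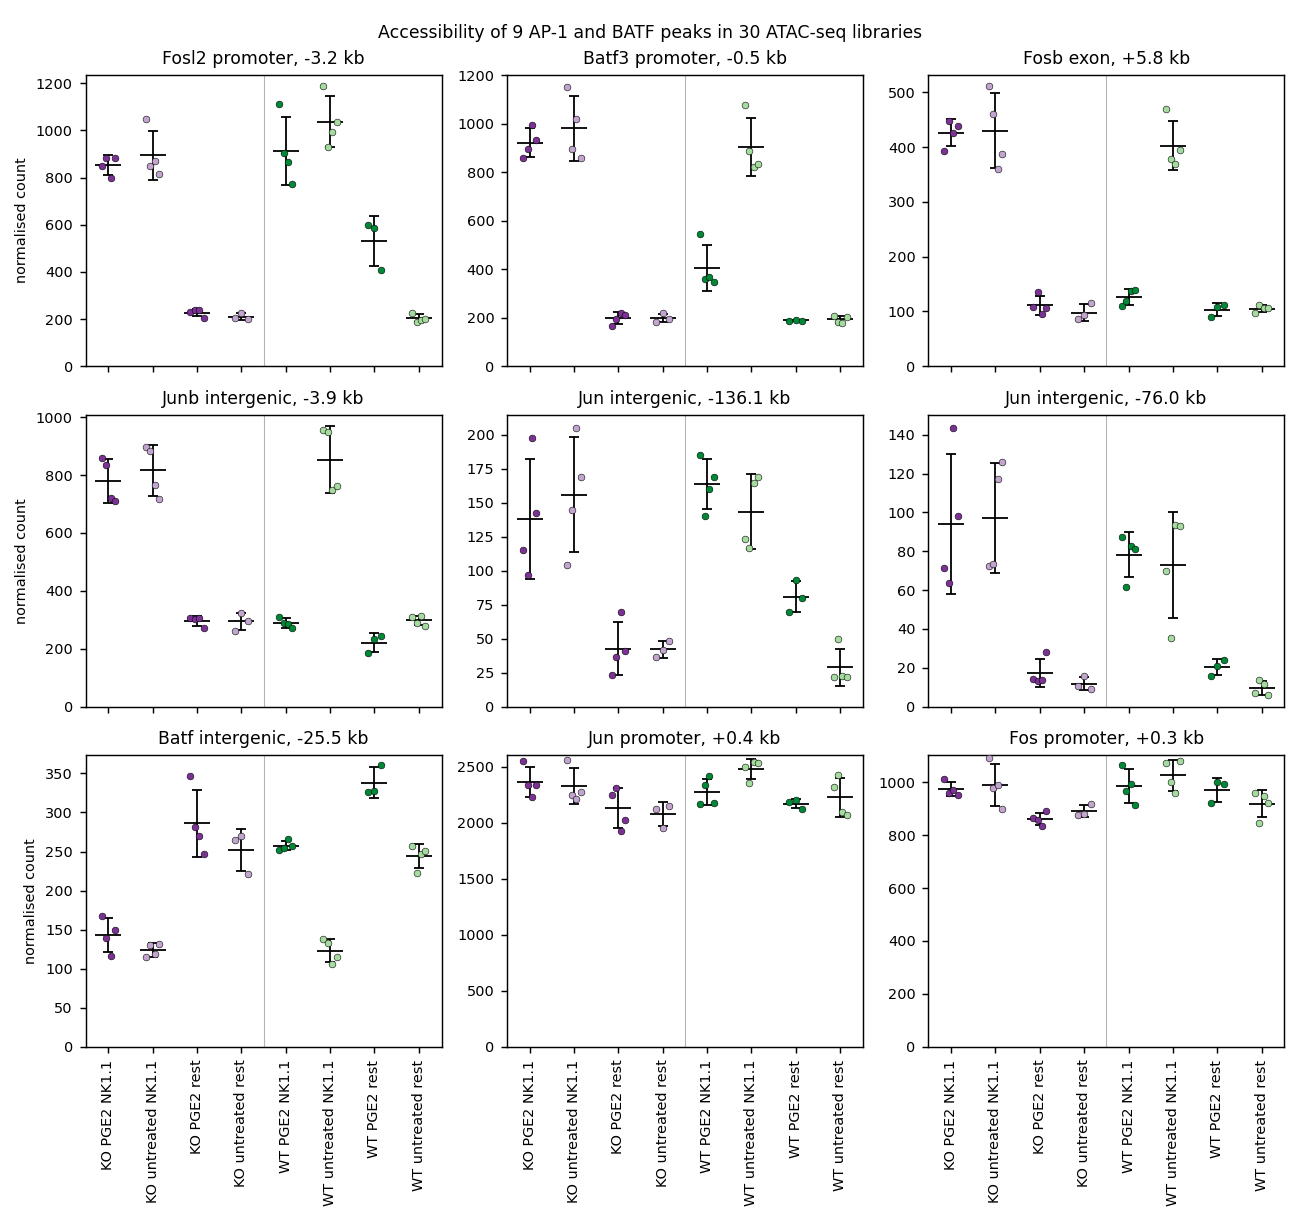
Normalised counts (y axis, from 0) at 9 peaks in every library (points), by group, with the group mean and SD (lines); "rest" means unstimulated and "NK1.1" stimulated. Fosl2, Batf3, Fosb, Junb and Jun distal peaks were high in stimulated cells, the Fosb, Junb and Batf3 peaks were lower in PGE2-treated than in untreated stimulated WT cells, and the Jun and Fos promoter groups overlapped in a chain.

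NK1.1 stimulation opened many of these peaks in untreated WT cells. With limma and Benjamini-Hochberg adjustment over all peaks, 30 of the 58 rose (51.7%), against 28.9% of the 38525 peaks tested, and 7 fell (12.1%), against 27.4%. The median difference was 0.25 over the 58 peaks and -0.02 over all peaks. Rises were found at every gene: 5 of 9 Fos peaks, 5 of 8 Fosb, the Fosl1 peak, 2 of 5 Fosl2, 7 of 18 Jun, 3 of 4 Junb, 1 of 3 Jund, 3 of 5 Batf and 3 of 5 Batf3. Falls came from Jun (4) and from Fosl2, Batf and Batf3 (1 each). Of the 12 promoter peaks 6 rose and none fell, where 19.5% of the 12048 promoter peaks in the table rose and 21.7% fell. Marker lists moved too: the summed level of NK marker peaks was 23612 to 26922 in stimulated and 20874 to 23212 in unstimulated cells, and those of the Pax5 peaks (304 to 374 against 465 to 535), myeloid (2880 to 3131 against 3138 to 3487) and erythroid peaks (481 to 547 against 572 to 663) were lower with stimulation. Their part in these results was not tested.

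Among the FOS family, Fosl2, which encodes FRA-2, had the promoter peak with the largest rise. This peak, 3.2 kb upstream of the start (chr5:32132602-32133948), had 1187, 931, 993 and 1037 normalised counts in stimulated cells, against 227, 187, 198 and 199 in unstimulated cells. The groups were far apart (2.35 ± 0.11, limma adjusted p = 2.57e-20). The peak over the Fosl2 start itself (chr5:32134919-32136787) held 2244, 2251, 2307 and 2352 in stimulated and 1638, 1591, 1466 and 1266 in unstimulated cells, again without overlap (0.63 ± 0.10, limma adjusted p = 8.12e-07). Fosl1, which encodes FRA-1, a subunit without a transactivation domain, had 1 peak, at its promoter (chr19:5447369-5449086). It held 794, 686, 774 and 729.7 in stimulated cells, against 379, 351, 346 and 327 in unstimulated cells, with no overlap (1.09 ± 0.08, limma adjusted p = 3.07e-14).

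Fosb and Fos moved away from their start sites. The Fosb exon peak 5.8 kb downstream (chr7:19303825-19304878) had 469, 378, 369 and 395 in stimulated cells and 96.6, 112, 107 and 106 in unstimulated cells, with no overlap (1.92 ± 0.12, limma adjusted p = 4.58e-16). Upstream of Fosb, the peaks at 6.6, 11.5 and 15.9 kb rose by 2.15 ± 0.24, 1.88 ± 0.11 and 1.77 ± 0.20 (limma adjusted p at most 1.32e-09), while its promoter peak (chr7:19310002-19310645) was at 338 ± 28.2 in stimulated and 324 ± 35.4 in unstimulated cells (SD, n = 4 each; 0.06 ± 0.10; limma adjusted p = 0.63). Upstream of Fos, the peaks at 43.2, 31.6, 28.9 and 26.6 kb rose by 1.24, 1.80, 0.68 and 1.30. At the Fos promoter (chr12:85472995-85475355) the stimulated libraries had 1072, 999, 958 and 1078, against 959, 845, 949 and 919.6 in the unstimulated ones. The groups just touched, and the difference of 0.16 ± 0.07 (limma adjusted p = 0.0386) was lost without any 1 of 4 libraries (adjusted p between 0.0608 and 0.152).

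Jun, the partner of all FOS proteins, showed the widest spread of directions. Its largest rise was at a weak peak 76.0 kb upstream (chr4:95127849-95128619), with 69.8, 35.2, 93.5 and 92.8 in stimulated cells, against 7.07, 13.6, 11.8 and 5.97 in unstimulated cells. The lowest stimulated library still stood above every unstimulated one (2.77 ± 0.31, limma adjusted p = 7.69e-10). The peak 136.1 kb upstream (chr4:95187976-95188733) had 123, 117, 165 and 169 in stimulated and 22.0, 49.6, 22.6 and 21.5 in unstimulated cells, without overlap (2.35 ± 0.25, limma adjusted p = 4.48e-10). The peaks 108.0 kb upstream and 16.7 kb downstream rose by 2.16 ± 0.17 and 2.25 ± 0.29 (limma adjusted p at most 2.89e-08). Farther upstream, the peak 145.2 kb upstream (chr4:95197210-95197670) had 45.5, 74.5, 38.8 and 28.6 in stimulated cells, against 104, 105, 114 and 129 in unstimulated cells. It fell in all 4 stimulated libraries (-1.33 ± 0.21, limma adjusted p = 1.08e-06), as did its neighbour 147.8 kb upstream (-0.74 ± 0.14, limma adjusted p = 2.48e-05). The Jun promoter had 2497, 2354, 2548 and 2539 in stimulated and 2323, 2431, 2100.1 and 2072 in unstimulated cells, groups that overlapped (0.16 ± 0.07, limma adjusted p = 0.0569). This value lay near the threshold: the rise was called with TMM scaling (limma adjusted p = 0.0474), in a fit of the 2 groups alone (0.0244), with DESeq2 (0.0361) and without stimulated library 2 (0.0435) or unstimulated library 2 (0.0257).

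Junb and Jund opened just upstream of their genes, and Junb also within its gene. The Junb exon peak 2.4 kb downstream of the start (chr8:84975684-84976974) had 1739, 1675, 1452 and 1381 in stimulated cells. Unstimulated cells had 988, 827, 914 and 859 there, without overlap. The Junb peak 3.9 kb upstream (chr8:84982247-84982963) had 957, 950.1, 747 and 761 in stimulated cells, against 309, 291, 312 and 279 in unstimulated cells, well apart (1.51 ± 0.10, limma adjusted p = 7.48e-16). The Junb promoter (chr8:84977321-84978978) had 2138, 1931, 1625 and 1687 in stimulated and 1423, 1297, 1274 and 1267 in unstimulated cells, also without overlap (0.48 ± 0.13, limma adjusted p = 0.00175). In all 4 stimulated groups, libraries numbered 1 and 2 lay above those numbered 3 and 4 at this promoter. What the numbers stand for is not in the labels. The Jund peak 4.0 kb upstream (chr8:70693326-70694113) had 318, 260.2, 226 and 259 in stimulated cells, against 95.0, 112, 104 and 104 in unstimulated cells (1.34 ± 0.13, limma adjusted p = 1.67e-11). Jund, usually the most evenly expressed JUN protein, had no called change at its promoter peak (chr8:70698288-70701174; 0.09 ± 0.08, limma adjusted p = 0.35).

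Of the BATF genes, Batf3 responded at its promoter and Batf did not. Batf3, required for a lineage of cross-presenting dendritic cells in mice, had 1078, 885, 820.4 and 836 at the promoter peak in stimulated cells, against 207, 184, 179 and 203 in unstimulated cells. Every stimulated library stood far above the highest unstimulated one (2.22 ± 0.11, limma adjusted p = 9.58e-19). A peak 25.9 kb downstream of the Batf3 start rose by 2.07 ± 0.27 and an intron peak at 4.7 kb by 0.95 ± 0.10, and the peak 12.9 kb downstream (chr1:191110692-191111967) fell by 0.40 on the log2 scale (limma adjusted p = 0.00427). Batf, which drives the effector programmes of activated mouse T cells, had 457 ± 26.1 at its promoter (chr12:85686039-85687509) in stimulated and 484 ± 57.0 in unstimulated cells (SD, n = 4 each; -0.08 ± 0.09; limma adjusted p = 0.497). The peak 25.5 kb upstream of Batf, between it and Jdp2 (chr12:85660668-85661860), had 139, 133, 106 and 115 in stimulated cells, against 257, 223, 247 and 251 in unstimulated cells. It fell by 0.99 on the log2 scale, with all stimulated libraries below all unstimulated ones (limma adjusted p = 1.43e-09).

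**Figure D2:**
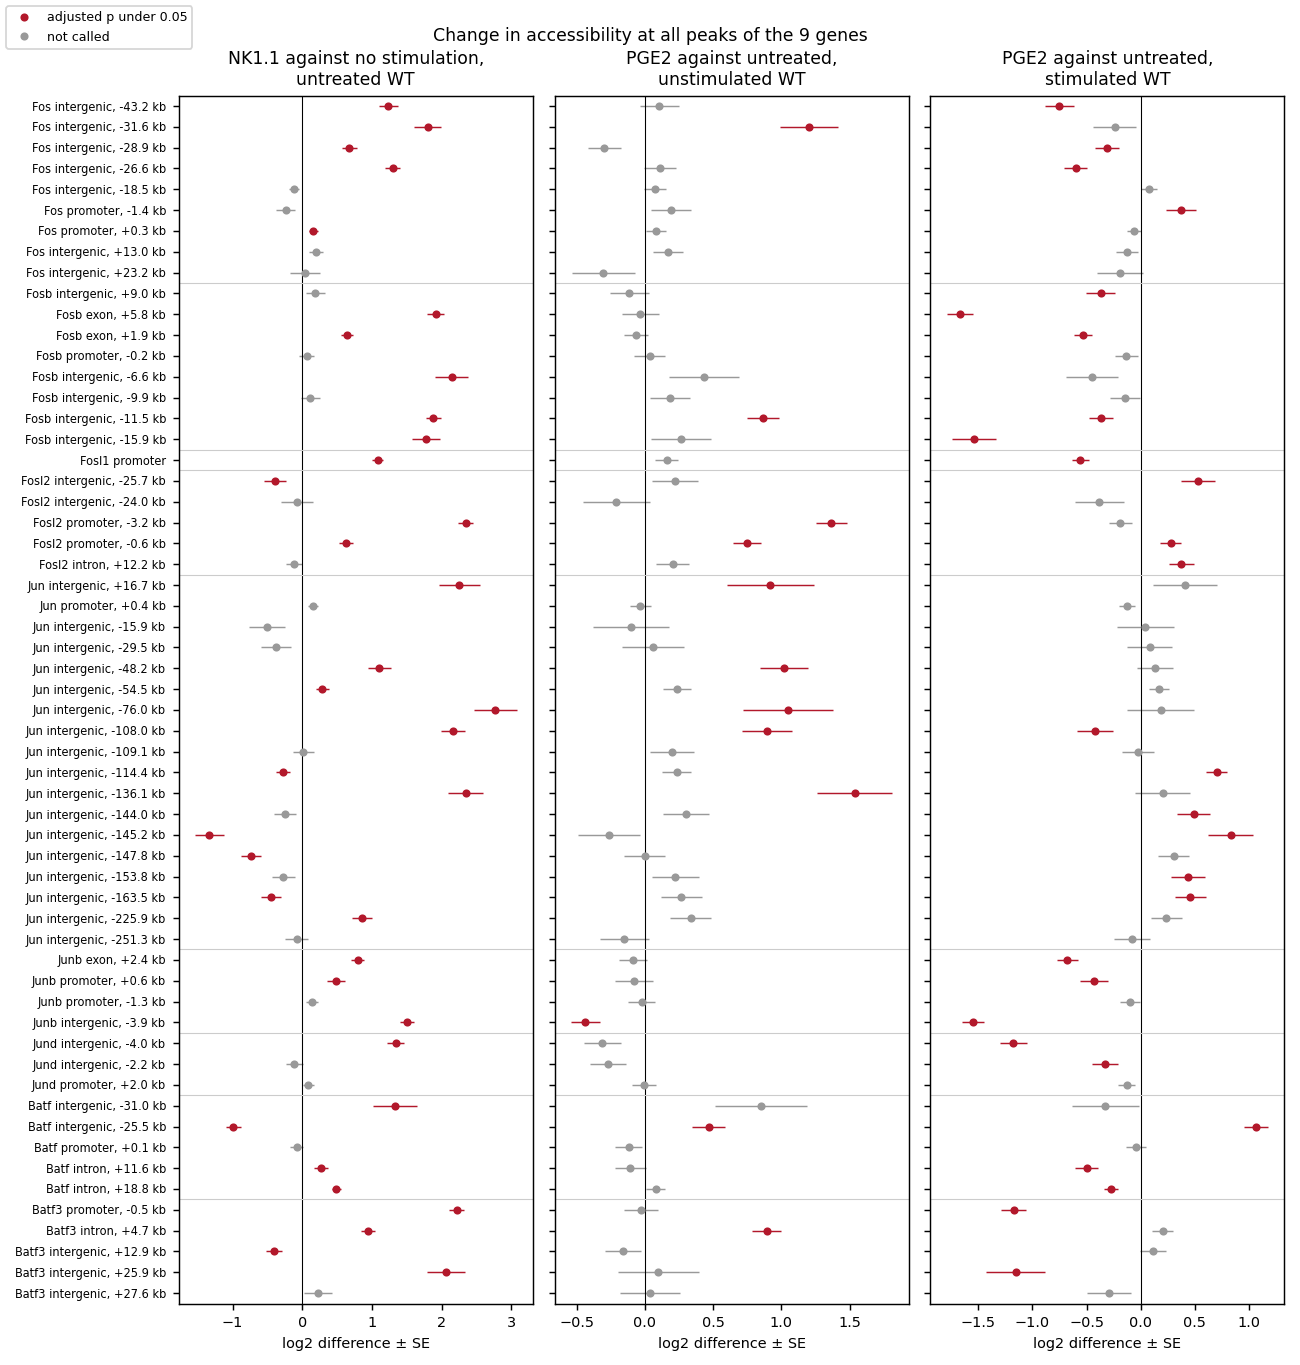
Log2 difference ± SE (x axis) at all 58 peaks (rows, by gene and distance of the peak centre from the start) for NK1.1 stimulation in untreated WT cells and for PGE2 in unstimulated and in stimulated WT cells; red points passed a limma adjusted p of 0.05. Stimulation raised 30 peaks, PGE2 raised 11 and lowered 1 in unstimulated cells, and raised 10 and lowered 19 in stimulated cells.

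PGE2 alone, in unstimulated WT cells, raised fewer peaks, most of them at Jun and Fosl2. Of the 58 peaks 11 rose (19.0%), against 10.9% of all peaks, and 1 fell (1.72%), against 4.03%. The median was 0.10 over the 58 peaks and -0.01 over all. The rises comprised 5 Jun, 2 Fosl2 and 1 each of Fos, Fosb, Batf and Batf3 peaks, and the fall was a Junb peak. The summed level of ILC2 and ILC3 marker peaks was 10558 to 11086 with PGE2 and 8896 to 9675 without, and its part here was not tested. This comparison shares its 4 untreated unstimulated libraries with that of NK1.1 stimulation, so their values at a peak are given side by side and not related to each other.

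The Jun peak 136.1 kb upstream had the largest rise with PGE2. It held 69.9, 93.2 and 79.8 normalised counts in PGE2-treated cells, against 22.0, 49.6, 22.6 and 21.5 in untreated cells, which did not overlap although 1 untreated library lay above the other 3 (1.54 ± 0.27, limma adjusted p = 6.60e-05). The Jun peaks 48.2, 108.0 and 16.7 kb from the start rose by 1.02 ± 0.18, 0.89 ± 0.18 and 0.92 ± 0.32 (limma adjusted p at most 0.0446). The one 76.0 kb upstream had 15.7, 21.0 and 23.9 with PGE2, against 7.07, 13.6, 11.8 and 5.97 without, few reads in either group. Its difference of 1.05 ± 0.33 (limma adjusted p = 0.0259) was no longer called with a pseudocount of 5 (adjusted p = 0.0528), with edgeR (0.0807), in a fit of these 2 groups alone (0.0760) or without any 1 of 4 libraries (0.0792 to 0.118). The Jun promoter itself had 2173 ± 40.0 with PGE2 (SD, n = 3) and 2231 ± 174 without (SD, n = 4; -0.03 ± 0.08; limma adjusted p = 0.84).

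At Fosl2, both promoter peaks rose with PGE2. The upstream one had 597, 588 and 407 in PGE2-treated cells, against 227, 187, 198 and 199 in untreated cells (1.36 ± 0.11, limma adjusted p = 2.11e-11). The lowest treated library was above every untreated library, and all 3 were below the stimulated libraries. The start-site peak had 2347, 3041 and 2171 with PGE2 and 1638, 1591, 1466 and 1266 without, again apart (0.75 ± 0.10, limma adjusted p = 1.12e-06). At this peak the order of all 8 groups differed from that of Batf3. PGE2-treated stimulated WT cells were highest (2774), above untreated stimulated WT cells (2289) without overlap, and PGE2-treated unstimulated WT cells (2519.7) spanned a range that overlapped both. The stimulated KO groups came next (1963 untreated and 1918 with PGE2), and each overlapped at least 1 of the groups above or below it.

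Single peaks of 4 other genes also rose with PGE2. The Fos peak 31.6 kb upstream (chr12:85442025-85442639) had 86.6, 85.0 and 90.4 in PGE2-treated cells, against 36.1, 34.0, 51.1 and 31.1 in untreated cells, without overlap (1.20 ± 0.21, limma adjusted p = 6.28e-05). Its stimulated libraries reached 114, 112, 151 and 159. The Fosb peak 11.5 kb upstream (chr7:19321330-19321937) had 139.9, 152 and 153 with PGE2, against 78.5, 85.5, 86.4 and 74.0 without (0.86 ± 0.12, limma adjusted p = 8.99e-07). The Batf3 intron peak (chr1:191102594-191103568) had 509, 451 and 456 with PGE2, against 295, 240.0, 253 and 229 without (0.89 ± 0.11, limma adjusted p = 4.20e-08), while the Batf3 promoter had 187, 192 and 188 with and 207, 184, 179 and 203 without PGE2 and overlapped (-0.03 ± 0.12, limma adjusted p = 0.922). The Batf peak 25.5 kb upstream had 326, 328 and 361 with PGE2, against 257, 223, 247 and 251 without (0.47 ± 0.12, limma adjusted p = 0.00553). All these treated libraries lay above the untreated ones, apart from those of the Batf3 promoter. The 1 peak that fell was the Junb peak 3.9 kb upstream, with 185, 233 and 245 in PGE2-treated cells, against 309, 291, 312 and 279 in untreated cells (-0.44 ± 0.11, limma adjusted p = 0.00291). That call was lost without the PGE2-treated library that held the lowest value (-0.31, limma adjusted p = 0.0646).

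**Figure D3:**
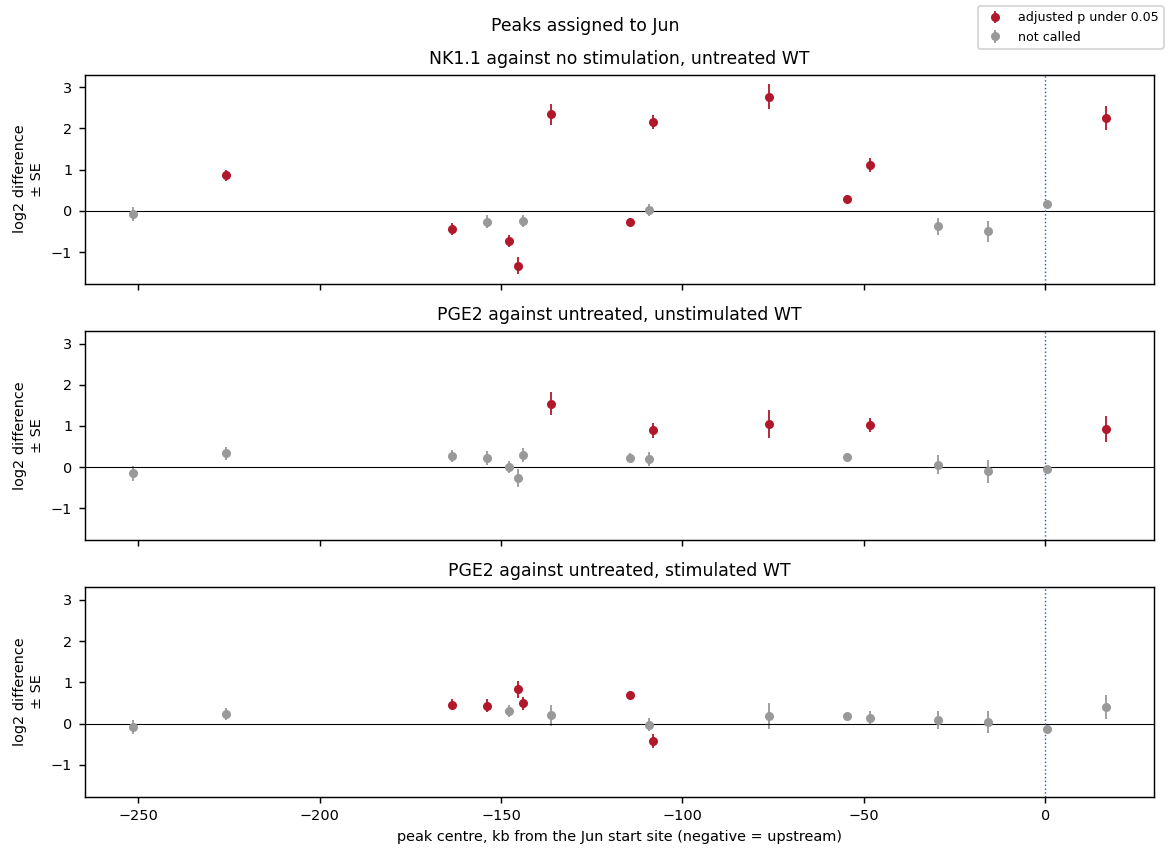
Log2 difference ± SE (y axis) at the 18 peaks assigned to Jun against the distance of the peak centre from the Jun start in kb (x axis), for stimulation in untreated WT cells and for PGE2 in unstimulated and stimulated WT cells; red points passed a limma adjusted p of 0.05. The promoter point was not called in any panel, although its small rise with stimulation was called under some alternatives, and the peaks near 48, 76, 108 and 136 kb upstream rose with stimulation and with PGE2 in unstimulated cells.

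In stimulated WT cells, PGE2 lowered more of these peaks than it raised. Of the 58 peaks, 19 were lower with PGE2 (32.8%), against 20.4% of all peaks, and 10 were higher (17.2%), close to the 20.2% of all peaks. The medians were -0.13 and -0.01. Lower peaks were 5 of 8 at Fosb, 3 each at Fos and Junb, 2 each at Jund, Batf and Batf3, 1 at Jun and the Fosl1 promoter, and none of the 5 at Fosl2. Higher peaks were 5 at Jun, 3 at Fosl2 and 1 each at Fos and Batf. The marker lists again moved: the summed NK level was 19261 to 21478 with PGE2 and 23612 to 26922 without, the T cell level 1666 to 1814 with and 1865 to 2111 without, and the Pax5 (449 to 532 against 304 to 374), myeloid (3465 to 3701 against 2880 to 3131) and ILC2 and ILC3 levels (10150.1 to 11650 against 8730 to 9542) were higher with PGE2. Their part in these results was not tested.

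Among the FOS family, the largest fall was at the Fosb exon. PGE2-treated stimulated cells had 109, 118, 138 and 138, against 469, 378, 369 and 395 in untreated stimulated cells. Every treated library was below every untreated one (-1.67 ± 0.12, limma adjusted p = 2.31e-13). The Fosb peak 15.9 kb upstream (chr7:19325630-19326485) had 44.7, 45.7, 42.8 and 45.8 with PGE2 and 144, 115, 133 and 137 without, with no overlap (-1.54 ± 0.20, limma adjusted p = 9.05e-08). The Fosl1 promoter had 487, 508, 516 and 512 with PGE2, against 794, 686, 774 and 729.7 without, lower in every library (-0.56 ± 0.08, limma adjusted p = 6.29e-07). Fos fell at the peaks 43.2, 28.9 and 26.6 kb upstream (by 0.75, 0.31 and 0.60 on the log2 scale) and its promoter was not called (-0.06 ± 0.07, limma adjusted p = 0.504). Fosl2 went the other way at its start site, with 2995, 2729.7, 2804 and 2565 with PGE2, against 2244, 2251, 2307 and 2352 without. All treated libraries were higher (0.28 ± 0.10, limma adjusted p = 0.0214), but without the highest of them, library 1, the call was lost (0.24, adjusted p = 0.0761). Its upstream promoter peak had 1110.5, 902, 868 and 772 with PGE2 and 1187, 931, 993 and 1037 without, which overlapped (-0.19 ± 0.11, limma adjusted p = 0.157).

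In the JUN family, Junb fell at 3 of 4 peaks and Jund at 2 of 3, while Jun rose at 5 of 18 and fell at 1. The Junb peak 3.9 kb upstream had 311, 290.0, 286 and 271 in PGE2-treated cells, against 957, 950.1, 747 and 761 in untreated cells, far apart (-1.55 ± 0.10, limma adjusted p = 7.60e-15). The Junb promoter had 1463, 1502, 1274 and 1235 with PGE2, against 2138, 1931, 1625 and 1687 without. Every treated library was lower (-0.43 ± 0.13, limma adjusted p = 0.00751). The Jund peak 4.0 kb upstream had 113, 139, 123 and 93.5 with PGE2, against 318, 260.2, 226 and 259 without (-1.18 ± 0.13, limma adjusted p = 1.71e-09). At Jun, the peak 145.2 kb upstream had 76.5, 92.6, 72.4 and 76.6 with PGE2 and 45.5, 74.5, 38.8 and 28.6 without, with 1 untreated library inside the treated range (0.83 ± 0.21, limma adjusted p = 0.00154). The Jun peak 114.4 kb upstream (chr4:95166068-95167211) had 869, 863, 854 and 784 with PGE2, against 548, 526, 484 and 514 without, and did not overlap (0.70 ± 0.10, limma adjusted p = 2.95e-07). The 1 Jun peak that fell was that at 108.0 kb (-0.42 ± 0.17, limma adjusted p = 0.0428), while those at 136.1 and 76.0 kb were at 164 ± 18.5 and 78.2 ± 11.5 with PGE2 and at 144 ± 27.3 and 72.9 ± 27.4 without (SD, n = 4 each) and were not called.

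Peaks assigned to the BATF genes also moved in both directions. The Batf3 promoter had 547, 360.3, 368 and 347 in PGE2-treated cells, against 1078, 885, 820.4 and 836 in untreated cells. Library 1 of the treated group was above its other 3 and still below all untreated libraries (-1.17 ± 0.11, limma adjusted p = 1.64e-10). The Batf3 peak 25.9 kb downstream had 59.6, 41.3, 46.9 and 43.9 with PGE2, against 116, 80.0, 136 and 103 without (-1.16 ± 0.27, limma adjusted p = 7.32e-04). The peak 25.5 kb upstream of Batf, the only riser here, lay nearer to an edge of Jdp2. It had 253, 254, 266 and 257 with PGE2, against 139, 133, 106 and 115 without. The treated libraries lay close together and well above the untreated ones (1.06 ± 0.11, limma adjusted p = 1.08e-09). The 2 intron peaks of Batf fell by 0.50 and 0.28 on the log2 scale, and its promoter was not called (-0.05 ± 0.09, limma adjusted p = 0.731).

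The PGE2 effect differed between stimulated and unstimulated WT cells at 23 of the 58 peaks when the difference itself was tested. It was lower with stimulation at 20 (34.5%), against 14.7% of all peaks, and higher at 3 (5.17%), against 10.6%. The Fosb peak 15.9 kb upstream, the Fosb exon, the Fosl2 peak 3.2 kb upstream and the Fos peak 31.6 kb upstream had the largest negative differences (-1.80 ± 0.30, -1.64 ± 0.18, -1.55 ± 0.16 and -1.44 ± 0.29; limma adjusted p at most 3.08e-04). At the Fosb peaks PGE2 was called in stimulated cells, as a fall, and at the Fosl2 and Fos peaks in unstimulated cells, as a rise. The 3 positive differences were at Jun 145.2 and 114.4 kb upstream and Batf 25.5 kb upstream (1.09 ± 0.31, 0.47 ± 0.14 and 0.60 ± 0.17). The Fosl2 start-site promoter and the Batf peak at 25.5 kb were higher with PGE2 in both states (2 of 11 and 2 of 10), the Junb peak at 3.9 kb was lower in both, and 2 peaks, at Fosb 11.5 kb and Jun 108.0 kb upstream, were higher in unstimulated and lower in stimulated cells. Calls shared between the states were not counted over all peaks.

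**Figure D4:**
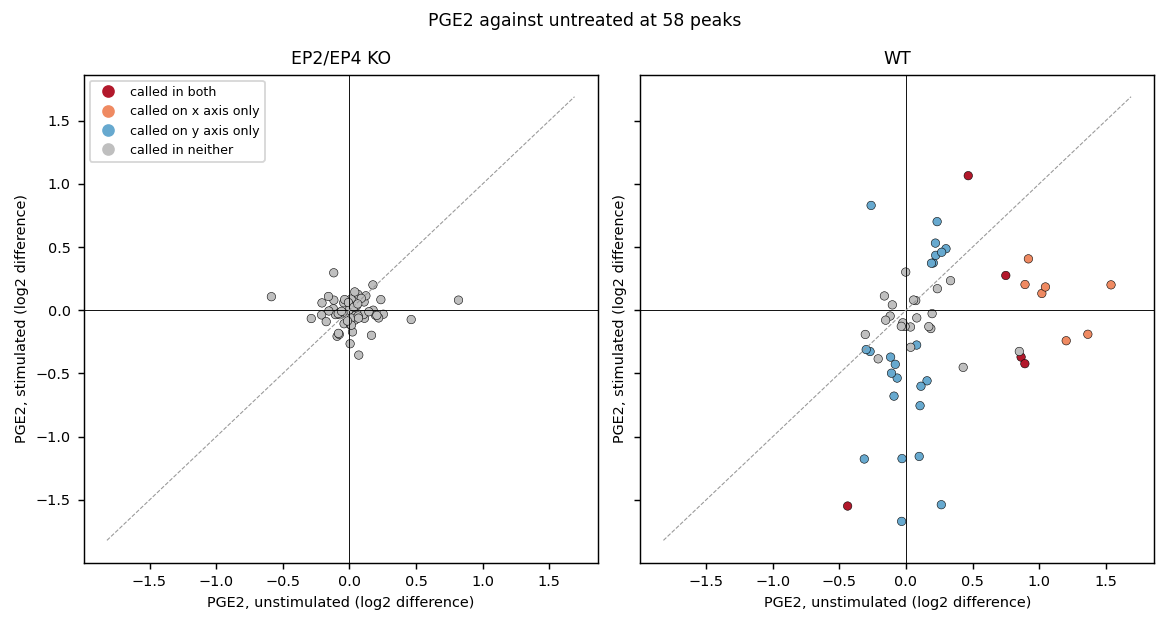
Log2 difference of PGE2 against untreated in unstimulated (x axis) and in stimulated cells (y axis) at the 58 peaks (points), in KO (left) and WT cells (right), with the line of equality; colours show in which state a peak passed a limma adjusted p of 0.05. No peak was called in KO cells, and in WT cells 3 peaks were called in the same direction in both states and 2 in opposite directions.

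With PGE2 present, stimulation raised 14 of the 58 peaks in WT cells (24.1%), against 12.7% of all peaks, and lowered 2 (3.45%), close to the 3.8% of all peaks. The rises were at 3 of 12 promoter and 11 of 46 other peaks, against 3.98% and 16.6% of such peaks in the table. All 14 were among the 30 that rose without PGE2 (46.7% of those), and both falls among the 7 (28.6%). Over all peaks 4874 rose with PGE2 and 11120 without it, and how many of these were shared was not counted. The largest rises were at Jun 76.0 kb upstream (1.91 ± 0.33), Jun 16.7 kb downstream (1.74 ± 0.32), Fosb 6.6 kb upstream (1.27 ± 0.26) and the Batf3 promoter (1.07 ± 0.12; limma adjusted p at most 3.33e-04). The Fosb exon and the Fosb peak 15.9 kb upstream were not called (0.28 ± 0.13 and -0.03 ± 0.22). The falls were at Jun 147.8 kb and Batf 25.5 kb upstream (-0.43 ± 0.15 and -0.39 ± 0.12; limma adjusted p = 0.0444 and 0.0217). The Jun fall was lost with TMM scaling (limma adjusted p = 0.0535) and without any 1 of 6 libraries (0.0635 to 0.162), and the Batf fall was lost without 1 unstimulated PGE2-treated library (0.106).

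**Figure D5:**
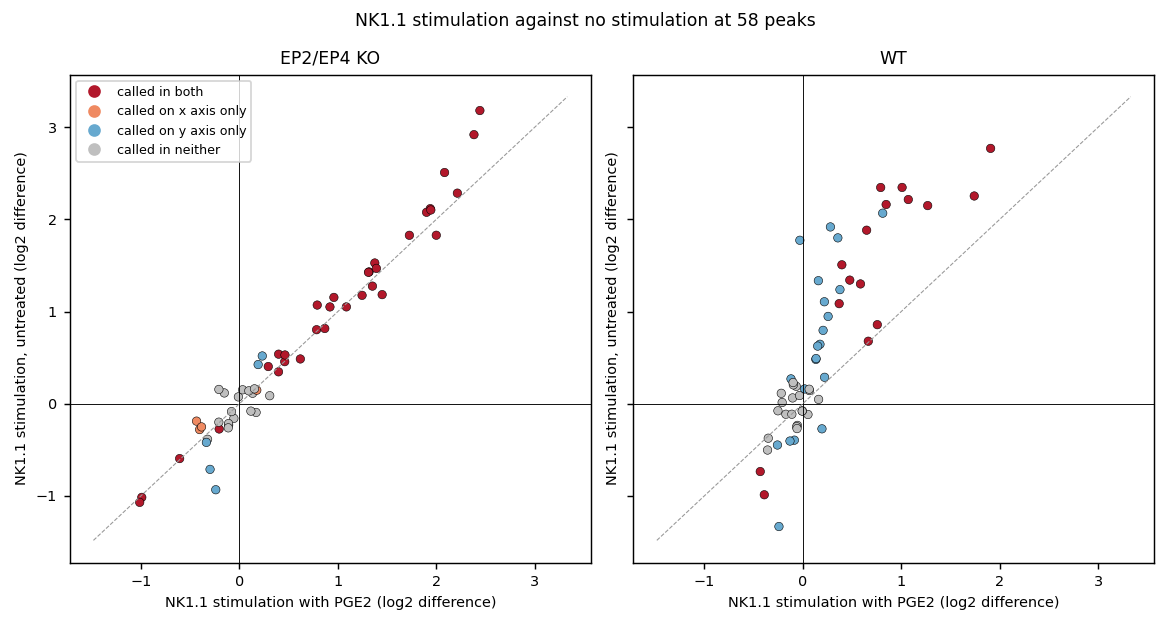
Log2 difference of NK1.1 stimulation against no stimulation with PGE2 (x axis) and without it (y axis) at the 58 peaks (points), in KO (left) and WT cells (right), with the line of equality; colours show where a peak passed a limma adjusted p of 0.05. In KO cells 28 of the 30 peaks that rose without PGE2 also rose with it, and in WT cells 14 of 30. Over all peaks 10682 rose with PGE2 and 10816 without it in KO cells, and 4874 and 11120 in WT cells.

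The EP2/EP4 KO cells also responded to NK1.1. Without PGE2, 30 of the 58 peaks rose in KO cells (51.7%), against 28.1% of all peaks, and 7 fell (12.1%), against 26.4%. The summed NK marker level was 23811 to 26716 in stimulated and 18562 to 19379 in unstimulated KO cells, and the ILC2 and ILC3 level 9040 to 9741 in stimulated and 8751 to 8859 in unstimulated ones. The Pax5 (303 to 381 against 481 to 578), erythroid (494 to 534 against 600.5 to 655) and myeloid levels (3002 to 3174 against 3192 to 3412) were lower with stimulation. Their part in these results was not tested. Of the rises 29 were shared with WT (96.7% of each), and 3 of the falls (42.9% of each). Over all peaks such sharing was not counted. The difference between the genotypes in the stimulation effect was called at none of the 58 peaks, nor at more than 0.00779% of all peaks (limma), with 2 of the 58 at an unadjusted p under 0.05 and none by edgeR or DESeq2. The Fosb exon had 511, 461, 361 and 387 in stimulated KO cells, against 86.1, 93.5 and 115 in unstimulated KO cells (2.12 ± 0.13, limma adjusted p = 4.31e-16). The Batf3 promoter had 1153, 895, 1021 and 857 in stimulated and 184, 218 and 197 in unstimulated KO cells, without overlap (2.29 ± 0.12, limma adjusted p = 6.51e-18).

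No peak of the 9 genes passed the test for PGE2 in KO cells. In unstimulated KO cells 0 of 58 peaks and 0.0% of all peaks were called with limma, 2 of the 58 had an unadjusted p under 0.05, and edgeR and DESeq2 called 0. In stimulated KO cells 0 of 58 and 0.0026% of all peaks were called, 1 of the 58 had an unadjusted p under 0.05, and edgeR and DESeq2 called 0 of the 58. The Fosl2 peak 3.2 kb upstream had 232, 238, 239 and 204 in PGE2-treated unstimulated KO cells, against 204, 226 and 202 in untreated ones, overlapping (0.11 ± 0.11, limma adjusted p = 1). The Fosb exon had 393, 448, 425 and 439 in PGE2-treated stimulated KO cells and 511, 461, 361 and 387 in untreated ones (0.00 ± 0.12, limma adjusted p = 1). The Jun peak 136.1 kb upstream had 23.4, 36.3, 69.9 and 40.9 with PGE2 and 36.3, 41.8 and 48.6 without in unstimulated KO cells, with treated libraries on either side of the untreated ones (-0.08 ± 0.27, limma adjusted p = 1). Stimulation with PGE2 raised 29 of the 58 peaks in KO cells, against 27.7% of all, and lowered 7 (12.1%), against 27.1%. There the NK level was 22871 to 24380 in stimulated and 18517 to 21752 in unstimulated KO cells, and the Pax5 (348 to 402 against 511 to 579.9) and erythroid levels (458 to 519.6 against 559.8 to 652) were lower with stimulation, and their part was not tested.

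The genotypes differed in the PGE2 effect itself, coded as the effect in KO minus that in WT. In unstimulated cells 7 of the 58 peaks had a negative difference (12.1%), against 4.94% of all peaks, and none a positive one, against 1.24% (10 of the 58 at an unadjusted p under 0.05 in either direction; edgeR and DESeq2 also called 0 positive). The largest were at Jun 136.1 kb (-1.62 ± 0.39), Fos 31.6 kb (-1.28 ± 0.30), Fosl2 3.2 kb (-1.25 ± 0.16) and Fosb 11.5 kb upstream (-0.85 ± 0.17; limma adjusted p at most 0.00627). At the Fos and Jun peaks untreated KO cells already stood above untreated WT cells (64.9 ± 9.34 against 38.1 ± 8.91, and 42.2 ± 6.19 against 28.9 ± 13.8; SD, n = 3 and 4), a difference that did not pass the test (0.77 ± 0.21, limma adjusted p = 0.0522, and 0.61 ± 0.27, limma adjusted p = 0.266). In stimulated cells 13 peaks had a positive difference (22.4%), against 9.8% of all, and 4 a negative one (6.9%), against 10.2%. The largest positive ones were at the Fosb exon (1.67 ± 0.17), Fosb 15.9 kb (1.62 ± 0.28), Junb 3.9 kb upstream (1.49 ± 0.14) and the Batf3 promoter (1.09 ± 0.16; limma adjusted p at most 6.27e-05). The largest negative ones were at Batf 25.5 kb (-0.86 ± 0.16), Jun 145.2 kb (-0.86 ± 0.30) and Jun 114.4 kb upstream (-0.74 ± 0.14), of which that at 145.2 kb (limma adjusted p = 0.0363) was lost with edgeR (0.0652), in a fit of the compared groups alone (0.0711) and without any 1 of 7 libraries (0.0537 to 0.116).

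Set directly against WT, KO cells differed mainly where PGE2 was present. With PGE2 and stimulation 18 peaks were higher in KO (31.0%), against 20.5% of all, and 9 lower (15.5%), against 19.7%. The summed NK marker level was 22871 to 24380 in KO and 19261 to 21478 in WT, and the Pax5 (348 to 402 against 449 to 532), myeloid (3119 to 3279 against 3465 to 3701) and ILC2 and ILC3 levels (9371 to 10002 against 10150.1 to 11650) were lower in KO. Their part here was not tested. The Junb peak 3.9 kb upstream had 859, 833, 720.0 and 711 in KO, against 311, 290.0, 286 and 271 in WT (1.42 ± 0.10, limma adjusted p = 5.70e-14), with every KO library far above every WT library. The Batf peak 25.5 kb upstream had 168, 139, 116 and 150.0 in KO and 253, 254, 266 and 257 in WT, lower in all (-0.85 ± 0.11, limma adjusted p = 1.16e-07). With PGE2 and no stimulation 2 peaks were higher in KO (3.45%), against 5.46% of all, and 8 lower (13.8%), against 8.99%. The ILC2 and ILC3 marker level was 8761 to 9608 in KO and 10558 to 11086 in WT, and its part here was not tested. The 8 were 4 Jun, 2 Fosl2, 1 Fosb and 1 Batf3 peaks, led by the Fosl2 peak 3.2 kb upstream (-1.20 ± 0.11, limma adjusted p = 6.07e-10). The 2 were the Junb peak at 3.9 kb (0.43 ± 0.11, limma adjusted p = 0.00398, lost at 0.0758 without WT library 2) and the Fos peak 28.9 kb upstream (0.36 ± 0.12, limma adjusted p = 0.0406). The Fos call was lost with edgeR (0.0503), in a fit of the compared groups alone (0.134) and without any 1 of 5 libraries, down to 0.21 with an adjusted p of 0.378 without WT library 3.

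Without PGE2, few differences between the genotypes were called. In untreated unstimulated cells 1 peak was called (1.72%), against 1.73% of all peaks, the Batf intron peak 11.6 kb from the start (chr12:85697759-85698786), with 177, 157 and 149.6 in KO and 216, 224, 215 and 219 in WT. All KO libraries were lower (-0.44 ± 0.11, limma adjusted p = 0.036), but the call was lost without any 1 of 6 libraries (adjusted p between 0.0584 and 0.155) and in a fit of the 2 groups alone (0.0619). The NK marker level was 18562 to 19379 in KO and 20874 to 23212 in WT, and the ILC2 and ILC3 level 8751 to 8859 in KO and 8896 to 9675 in WT, and their part here was not tested. In untreated stimulated cells no peak was called with limma, against 0.724% of all peaks, with 5 of the 58 at an unadjusted p under 0.05 and 1 peak higher by edgeR and by DESeq2.

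Stimulation in KO cells and PGE2 in WT cells share no library, so the peaks were sorted by both. Of the 30 peaks that rose with stimulation in KO cells, 18 were lower and 1 higher with PGE2 in stimulated WT cells, and 10 were higher (33.3%) and 1 lower with PGE2 in unstimulated WT cells. Over all 10816 peaks that rose in KO cells, 56.8% were lower and 6.86% higher with PGE2 in stimulated WT cells. The share that was lower was thus close to the 18 of 30 above. In unstimulated WT cells, 22.9% of the 10816 peaks were higher and 3.37% lower with PGE2. Of the 7 that fell in KO cells 3 were higher with PGE2 in stimulated WT cells (42.9%), against 46.5% of the 10185 such peaks in the table. Of the 21 that did neither, 6 were higher with PGE2 in stimulated WT cells (28.6%), against 13.1% of the 17524 such peaks, and limma called none in unstimulated WT cells, against 6.63% higher among all such peaks.

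Other genes of the pathway were read from 7 lists in WT cells, over all peaks of each list. In the whole table stimulation raised 28.9% of peaks and lowered 27.4%. PGE2 raised 10.9% and lowered 4.03% in unstimulated cells, and raised 20.2% and lowered 20.4% in stimulated cells. The other bZIP genes, partners and competitors of AP-1 such as Atf3, Jdp2 and Bach2, had 96 peaks at 15 of 17 genes. Stimulation raised 41 and lowered 19, PGE2 raised 27 and lowered 2 in unstimulated cells, and in stimulated cells it raised 28 and lowered 30. A Bach2 intron peak rose with stimulation by 3.69 (limma adjusted p = 4.33e-20) and an Atf3 intron peak by 2.26 (1.58e-19), where Bach2 is a repressor that competes for AP-1 sites. An intron peak of Jdp2, which represses AP-1 as a JUN partner, rose by 0.93 with PGE2 in unstimulated cells (limma adjusted p = 1.01e-09). The MAP kinase list had 123 peaks at 27 genes, with 37 higher and 29 lower with stimulation, 20 and 2 with PGE2 in unstimulated cells, and 22 and 18 in stimulated cells. Its median differences in these comparisons were -0.09, 0.02 and 0.05, near the -0.02, -0.01 and -0.01 of all peaks. An intron peak of Map3k5, the kinase ASK1, rose by 3.89 with stimulation and fell by 1.71 on the log2 scale with PGE2 in stimulated cells (limma adjusted p = 4.4e-20 and 9.99e-10).

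Upstream regulators and cofactors were smaller lists. SRF and its ternary complex partners, which control the Fos serum response element, had 10 peaks at 4 of 6 genes, 5 higher and 1 lower with stimulation, and 5 lower with PGE2 in stimulated cells. An Elk3 intron peak rose by 3.92 with stimulation and fell by 1.70 on the log2 scale with PGE2 in stimulated cells (limma adjusted p = 1.05e-17 and 7.47e-08). CREB, CREM and their coactivators had 28 peaks at 7 genes, with 3 higher and 13 lower with stimulation, 1 higher with PGE2 in unstimulated cells, a Crem intron peak (0.69, limma adjusted p = 6.81e-06), and 5 higher and 2 lower with PGE2 in stimulated cells. NFAT and IRF genes, whose products bind beside AP-1 and BATF, had 50 peaks at 6 genes, 23 higher and 9 lower with stimulation and 7 higher and 19 lower with PGE2 in stimulated cells. An intergenic Irf4 peak rose by 2.56 with stimulation and fell by 1.24 on the log2 scale with PGE2 (limma adjusted p = 5.56e-18 and 4.91e-09). Genes of ubiquitin ligases and their adaptors that turn over AP-1 proteins had 12 peaks at 4 of the 6 gene symbols listed, among which Cop1 and Rfwd2 are the same gene. Of these peaks 5 were higher and 2 lower with stimulation, and 1 higher and 5 lower with PGE2 in stimulated cells.

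Genes with known AP-1 sites, such as Csf2, Cd69, Tnfrsf9 and Ccl4, had 110 peaks at 20 of 21 genes. Like the other lists, this one was chosen with earlier results of these data known, so its counts and medians are a description. Stimulation raised 72 and lowered 11, with a median of 0.88, where the median of all peaks was -0.02. With PGE2 in stimulated cells 60 were lower and 9 higher (median -0.47, all peaks -0.01), and in unstimulated cells 20 were higher and 10 lower (median -0.02). A Tnfrsf9 exon peak rose by 4.45 with stimulation (limma adjusted p = 6.7e-23). The Ccl3 promoter peak changed by -1.14 with PGE2 in unstimulated and by -1.61 in stimulated cells (limma adjusted p = 3.44e-08 and 5.83e-13). The 1 peak of the whole table that limma called for PGE2 in stimulated KO cells was in none of these 7 lists.

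Peaks of other genes with the most similar group means were looked up for the 3 leading peaks, as Pearson correlations over the 8 group means on the log2 scale, among peaks with a mean of at least 50 and 1 peak per gene. All means come from the same 30 libraries and share their scaling, so the values are a description. For the Jun peak 136.1 kb upstream the 5 closest were peaks assigned to Gm20388, Phf3, Akap11, Elmo1 and Dntt (0.996 to 0.998). For the Fosb exon they were at Lrrc20, Slc9a9, Prkar1b, Cd74 and Wscd2 (0.997 to 0.999), and for the Jun peak 76.0 kb upstream at Gm4971, Pik3ca, Ppil4, Fam227a and Itgav (0.996 to 0.998).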

How the data were processed

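Accessibility was measured by ATAC-seq in 30 libraries. Per the submitters' processing notes, the authors used Trimmomatic 0.39, Bowtie2 2.4.1, MACS2 2.2.7.1 and DESeq2 (version not given there) with mm10. The treatment of duplicates and of the transposase offset is not recorded in those notes. The deposited signal is a DESeq2-normalised read count per peak and library for 38526 peaks, with a gene and a class per peak, per the file headers and those notes.

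Differences were tested with limma 3.58.1 (R 4.3.3) on log2(signal + 1), with a trend, on all 30 libraries and the 38525 peaks with a mean of at least 10, and p-values were adjusted by Benjamini-Hochberg over all of them, with calls at 0.05. Groups followed the labels. Every value was a whole multiple of the library's value of 1 read (100% of values, within 0.05 reads), and edgeR 4.0.16 and DESeq2 1.42.0 on the recovered reads were alternatives. Other alternatives were TMM scaling, a pseudocount of 5, no filter, a mean of at least 50, fits of the compared groups alone, the replicate number as a block and leaving out each library. The script was tested on simulated data. Precision is limited by 3 or 4 libraries a group. In 42 pairs of libraries of 1 group, counts differed by more than sampling noise (chi-square per peak 2.20 to 12.2), so none was counted as a duplicate.

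Distances come from RefSeq GRCm38.p6. Members and gene lists were chosen with earlier results of these data known. Named peaks were each gene's promoter peak with the highest mean and, in each comparison, up to 4 called peaks per direction with the largest difference, at most 2 per gene. Other peaks of the 9 genes, and the pathway genes named for their smallest p, were described besides. Python 3.11.15, pandas 2.3.3 and matplotlib 3.10.9 made tables and figures.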

Additional observations from a re-analysis of the deposited data

Results flagged for a closer look

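In 8 of 138 groups of 4 libraries, over the 23 named peaks, 1 library stood far from the other 3 (its gap to the nearest, over the range of the group, was above Dixon's 95% value), and chance gives about 1 in 20 groups. These were PGE2-treated unstimulated KO library 2 at the Fosl1 promoter (299 normalised counts, the others 353 to 361), untreated stimulated KO library 1 at the Fosl2 start-site promoter (2232, the others 1863 to 1892), and PGE2-treated unstimulated KO library 4 at Jun 76.0 kb upstream (28.1, the others 13.1 to 14.03). At Jun 136.1 kb upstream it was untreated unstimulated WT library 2 (49.6, the others 21.5 to 22.6). At Jun 147.8 kb upstream it was library 1 in both PGE2-treated stimulated groups, low in KO (78.3, the others 113 to 116) and high in WT (136, the others 109 to 112). The others were PGE2-treated unstimulated KO library 4 at Junb 3.9 kb upstream (270.1, the others 304 to 306) and PGE2-treated stimulated WT library 1 at the Batf3 promoter (547, the others 347 to 368).

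The PGE2 effect differed between genotypes, as the KO effect minus the WT effect, in limma's test of the difference. In unstimulated cells it did so at Jun 136.1 kb (-1.62), Fos 31.6 kb (-1.28), Fosl2 3.2 kb (-1.25) and Fosb 11.5 kb upstream (-0.85). In stimulated cells it did so at the Fosb exon (1.67), Fosb 15.9 kb upstream (1.62), Junb 3.9 kb upstream (1.49), the Batf3 promoter (1.09), Batf 25.5 kb (-0.86), Jun 145.2 kb (-0.86) and Jun 114.4 kb upstream (-0.74). Between the states of WT cells, as the effect in stimulated minus that in unstimulated cells, it differed at Jun 145.2 kb (1.09), Batf 25.5 kb (0.60) and Jun 114.4 kb upstream (0.47), and at Fosb 15.9 kb upstream (-1.80), the Fosb exon (-1.64), Fosl2 3.2 kb (-1.55) and Fos 31.6 kb upstream (-1.44).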

How the results depend on the processing

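Of 85 called differences at named peaks, 80 stayed called under the 8 alternatives other than leaving out a library (81 of the 85 could be fitted with a mean of at least 50), and 73 stayed called without any 1 library. None reversed. Over all peaks, edgeR called 21888 for stimulation of untreated WT cells, against 21692 with limma. The calls lost among the 85 are given beside their values above, apart from Fos 18.5 kb upstream for stimulation of KO cells with PGE2 and Jun 136.1 kb upstream for KO against WT in PGE2-treated unstimulated cells, which was lost without KO library 1 (limma adjusted p = 0.0580) or WT library 3 (0.0637). Other called differences are not among the 85, and their calls under the alternatives are not given. Among these, Jun 16.7 kb downstream with PGE2 in unstimulated WT cells was near the threshold. So was Jun 108.0 kb upstream with PGE2 in stimulated WT cells. The labels do not say what the shared replicate numbers stand for. Deviations of same-numbered libraries had a median correlation of 0.065 (lowest -0.021, 39 of 99 pairs over 0.1), against -0.023 for other numbers, short of the criterion that every pair be over 0.1. Yet 26 of 30 libraries correlated best with their own number, a hint from the data that the numbers may mark something shared. Libraries numbered 1 with those numbered 2 (median 0.038), and 3 with 4 (0.039), also deviated together. The other pairs of numbers had medians of -0.090 to -0.033. Untreated unstimulated KO and PGE2-treated unstimulated WT cells lack number 1, so comparisons with them are unbalanced over the numbers. With the replicate block, 1 of the 85 calls was lost, Jun 147.8 kb upstream for stimulation with PGE2 in WT cells (-0.41, limma adjusted p = 0.0518), and the Junb promoter had 0.48 for stimulation (1.51e-05) and -0.43 for PGE2 in stimulated WT cells (1.47e-04). With the block the rise of the Jun promoter with stimulation of untreated WT cells was called (0.16, limma adjusted p = 0.0284), and it was the 1 of 17 uncalled named differences that any alternative brought past the threshold. The block turned 2 uncalled PGE2 differences in unstimulated WT cells, Jund promoter (0.014, against -0.01 without it) and Batf3 promoter (0.0097, against -0.03). Counts of the 58 peaks that moved over 1.5 times were small. Stimulation with PGE2 in WT cells lowered 1 peak with TMM and 1 with the block (2 before). KO against WT in untreated unstimulated cells gave 2 higher with the block and 1 with DESeq2 (0 before) and 0 lower in a fit of the compared groups alone (1 before). In untreated stimulated cells it gave 1 higher with that fit, 2 with the block, 1 with edgeR and 1 with DESeq2 (0 before), and with PGE2 in unstimulated cells 1 higher with that fit and 1 with edgeR (2 before). The genotype difference of the PGE2 effect in stimulated cells was negative at 2 with edgeR (4 before). Leaving out single libraries gave 0 to 2 peaks lower for stimulation with PGE2 in WT and 4 to 9 in KO cells, 0 to 1 higher and 0 to 1 lower for KO against WT in untreated unstimulated cells, 1 to 2 higher with PGE2 in unstimulated cells, and 0 to 1 positive and 2 to 5 negative genotype differences of the PGE2 effect in unstimulated and in stimulated cells. It moved uncalled values across 0: Fosb promoter for stimulation -0.0052 to 0.11 and for PGE2 in unstimulated WT cells -0.034 to 0.086, and with PGE2 also the promoters of Jun -0.0695 to 0.0072, Jund -0.072 to 0.036 and Batf3 -0.066 to 0.0052. A single read was worth up to 1.66 normalised counts, and what this means for weak peaks was not tested.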
